A study of Mus musculus with 62 samples.

Results

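The regions described here are the CUT&Tag sites that lie in Zfp genes, the mouse genes named Zfp and a number, most of which encode C2H2 zinc-finger proteins. A site was taken when it overlapped, on an autosome, the body of a protein-coding gene of that name in the GENCODE M21 annotation of mm10. Of 1709082 autosomal sites in 14 tables of comparisons, 12106 lay in Zfp genes and 821458 in other protein-coding genes. The annotation holds 383 such Zfp genes, and 381 of them had at least 1 site, the exceptions being Zfp969 and Zfp616. On chromosome 7 there were 92 of the genes, on chromosome 17 there were 45 and on chromosome 13 there were 36. In clusters of 5 or more neighbours with starts less than 500 kb apart there were 184 genes in 17 clusters, and 199 were isolated. Zfp genes covered 12.4 Mb against 980.0 Mb for other genes, and their median length was 17.4 kb against 17.6 kb.

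The libraries came from haematopoietic stem and progenitor cells (HSPCs), bone-marrow cells enriched with beads for the absence of lineage markers and the presence of c-Kit, from C57BL/6 mice. All mice carried 1 copy of the Mx1Cre transgene, whose promoter responds to interferon, and recombination was induced by pI:pC, so WT mice (Daxx +/+ Cre +/-) share the Cre and the treatment with Daxx-KO mice (Daxx F/F Cre +/-) and with double-knockout mice (DKO, homozygous for floxed Pu.1 as well as for floxed Daxx, Cre +/-). Cells were taken at 3, 8 or 24 weeks post induction (w.p.i.), and the age of the mice is not given in the labels. CUT&Tag cuts and tags DNA next to a bound antibody, here against the histone variant H3.3, the transcription factor Pu.1, the active mark H3K27ac and the repressive marks H3K9me3 and H3K27me3. The floxed Daxx allele was made in C57BL/6N and the Cre line in C57BL/6J mice, so substrain differences near Daxx cannot be told apart from the deletion. Each group had 2 libraries at 3 and 24 w.p.i. and 3 at 8 w.p.i., each named after 1 mouse.

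Most Zfp genes encode arrays of C2H2 fingers, and many join them to a KRAB domain, which recruits Trim28 and the methyltransferase Setdb1 to place H3K9me3 on transposable elements. The genes themselves are a known target of H3K9me3, above all at their 3′ ends, where 1 long last coding exon repeats the finger unit many times. Daxx deposits H3.3 in heterochromatin together with Atrx, a remodeller known to bind these exons. The comparisons ask whether H3K9me3, H3.3 and the other marks at Zfp genes differ between genotypes in another way than at genes in general, and whether 3′ ends differ from promoters.

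The part of these genes on which the results turn is the finger array of the last coding exon. Consecutive fingers are joined by a linker of the amino acids TGEKP, and the DNA word ACNGGNGANAANCC, which can encode it, was searched on both strands. The word occurred 9056 times on the autosomes, and 1679 of these lay in last coding exons of Zfp genes. In windows of 800 bp it was present in 3.74% of windows in Zfp genes and in 0.149% of windows in other genes. Of 1409 pairs of neighbouring words in Zfp last coding exons, 66.6% were 84 bases apart, the length of 1 finger and its linker. Stretches of 3 linker words (in capitals) from 3 genes are shown, because each lay under an H3K9me3 site that was lower in Daxx-KO cells at 3, 8 and 24 w.p.i. They were read from GRCm38 (mm10) on the strand of the gene, with Zfp790 at chr7:29828798-29829049 on the plus strand, Zfp869 at chr8:69706812-69707063 on the minus strand and Zfp169 at chr13:48489715-48489966 on the minus strand.
Zfp790: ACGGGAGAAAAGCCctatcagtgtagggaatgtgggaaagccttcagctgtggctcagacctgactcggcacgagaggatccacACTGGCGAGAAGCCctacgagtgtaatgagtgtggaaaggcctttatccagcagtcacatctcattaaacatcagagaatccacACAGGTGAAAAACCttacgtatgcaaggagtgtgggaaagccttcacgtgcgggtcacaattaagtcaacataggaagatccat
Zfp869: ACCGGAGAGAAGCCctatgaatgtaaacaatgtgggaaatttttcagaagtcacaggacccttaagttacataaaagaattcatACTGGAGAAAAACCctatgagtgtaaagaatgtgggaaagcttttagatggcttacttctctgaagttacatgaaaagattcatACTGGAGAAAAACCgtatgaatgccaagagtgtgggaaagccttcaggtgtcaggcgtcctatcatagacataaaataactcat
Zfp169: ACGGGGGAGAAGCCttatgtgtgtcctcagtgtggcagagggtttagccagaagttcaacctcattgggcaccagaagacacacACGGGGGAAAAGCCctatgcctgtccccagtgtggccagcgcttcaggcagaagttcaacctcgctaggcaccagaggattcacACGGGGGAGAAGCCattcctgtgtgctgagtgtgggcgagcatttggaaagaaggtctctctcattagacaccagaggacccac

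A site is listed in a table only if its windows had passed the authors' own test between the 2 genotypes, so shares of listed sites describe which way changes went and not how many places changed. A site is called gained where the average normalized count of the first-named genotype was higher and lost where it was lower. The normalized count is the number of reads of a library at the site divided by a constant of that library. Mean reads per 600-bp window, the only measure of depth in the tables, were 1.21 to 33.78 at 3 w.p.i., 0.21 to 3.28 at 8 w.p.i. and 3.97 to 10.3 at 24 w.p.i. Of the H3K9me3 libraries of DKO mice at 8 w.p.i., replicate 2 had 0.21 reads per window, replicate 1 had 0.67 and replicate 3 had 3.28, so normalized counts of 0 in the first of these rest on little sequence. Of genes that mark progenitors, Kit, Cd34 and Mpo had H3K27ac sites at 3 and 24 w.p.i., and of those that mark mature cells, Cd3e and Ly6g had sites at 24 w.p.i. but none at 3 w.p.i. The part of mature cells in the results at 24 w.p.i. was not tested. Fewer cells with a mark and less of the mark per cell cannot be told apart in these bulk libraries.

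H3K9me3 sites in Zfp genes were lost in Daxx-KO cells more often than H3K9me3 sites in other genes. At 24 w.p.i. this was not particular to Zfp genes, as olfactory and vomeronasal receptor genes had lower gained shares still. At 3 w.p.i., 273 of 504 Zfp sites were gained, which is 54.2%, against 77.8% of the sites in other genes. At 8 w.p.i., 168 of 638 Zfp sites were gained, which is 26.3%, against 68.5% in other genes. At 24 w.p.i., 538 of 1214 Zfp sites were gained, which is 44.3%, against 56.8% in other genes. The differences between Zfp and other genes were -23.6 percentage points at 3 w.p.i. (95% Newcombe interval -28.1 to -19.3), -42.2 at 8 w.p.i. (-45.6 to -38.6) and -12.5 at 24 w.p.i. (-15.3 to -9.62). These intervals cover counting error only, and neighbouring sites share libraries. H3K9me3 sites also lay more densely in Zfp genes, by a factor of 2.81 per Mb at 3 w.p.i., 3.26 at 8 w.p.i. and 1.65 at 24 w.p.i. In all other marks this ratio was between 0.747 and 1.03.

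Sites in Zfp genes had higher counts than other sites, and their base composition differed too, so the shares were also compared among sites of equal GC content and equal mean count. With both made equal, the difference was -19.2 percentage points at 3 w.p.i. and -31.2 at 8 w.p.i., but only -1.86 at 24 w.p.i. With mean count alone made equal, it was -6.12 at 3 w.p.i., -35.6 at 8 w.p.i. and -12.4 at 24 w.p.i. The shift at 8 w.p.i. was thus the largest under each of these settings, and that over whole gene bodies at 24 w.p.i. was small once GC content was made equal.

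**Figure D1:**
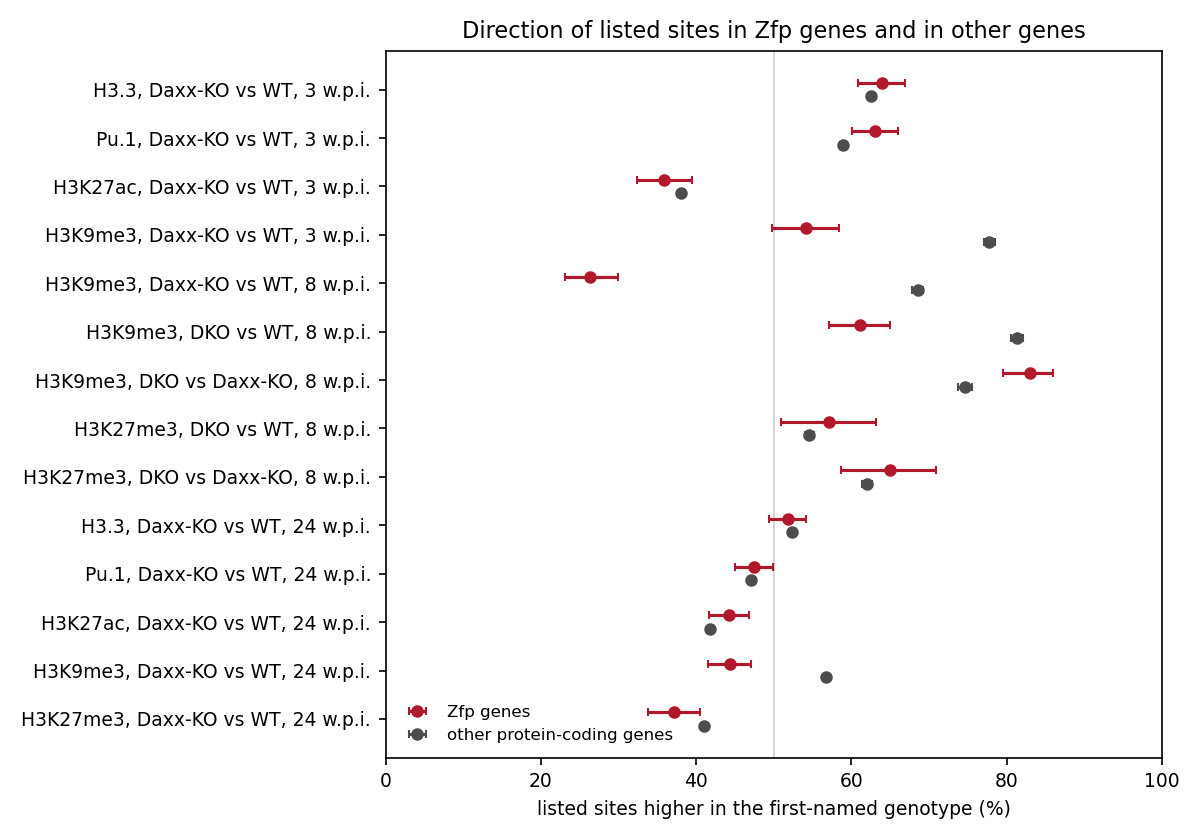
Share of listed sites that were higher in the first-named genotype, for Zfp genes (red) and other protein-coding genes (grey), in each of 14 comparisons; bars are 95% Wilson intervals. The H3K9me3 comparisons separate the colours, with 26.3% against 68.5% at 8 w.p.i., whereas the other marks lie within 5 percentage points of each other.

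The same direction was seen in the summed signal of each library at the listed sites. These sites had been listed for a difference between the same libraries. Separation of the groups can follow from that listing and is no independent sign of a difference, which holds for all summed signals by library below. The summed H3K9me3 counts of Zfp sites were divided by those of sites in other genes and put on a log2 scale. At 8 w.p.i. the Daxx-KO libraries were at -3.80, -3.82 and -3.85 and the WT libraries at -2.51, -2.45 and -2.70. All 3 Daxx-KO libraries lay below all 3 WT libraries, and the ratio was 0.415-fold that of WT (difference of -1.27, SD 0.029 for Daxx-KO and 0.132 for WT, n = 3, exact two-sided permutation p = 0.1, the smallest possible). Per site, Zfp sites carried mean normalized counts of 33.1, 34.5 and 39.6 in Daxx-KO cells against 58.8, 69.9 and 57.8 in WT cells. Sites in other genes went the opposite way, with 19.0, 20.1 and 23.6 in Daxx-KO cells against 13.8, 15.7 and 15.5 in WT cells.

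At 3 w.p.i. the log2 ratios were -4.22 and -4.09 in Daxx-KO cells and -3.74 and -3.72 in WT cells. The groups did not overlap, and the ratio was 0.746-fold that of WT (difference of -0.42, SD 0.0944 and 0.0152, n = 2, exact two-sided permutation p = 0.33, the smallest possible). At 24 w.p.i. the ratios were -5.88 and -5.92 against -5.87 and -5.73. The groups did not overlap, but the difference of -0.10 was about the size of the WT SD (SD 0.0278 and 0.0987, n = 2, exact two-sided permutation p = 0.33, the smallest possible). Without the cluster Zfp990 to Zfp933 on chromosome 4 this difference was 0.07 and so in the other direction. Adjusted over the 14 comparisons, no p was below 0.35. At listed Zfp sites, relative to those of other genes, H3K9me3 was thus lower in every Daxx-KO library at 3 and 8 w.p.i. At 24 w.p.i. it was lower in each Daxx-KO library too, but close to WT over whole gene bodies.

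**Figure D2:**
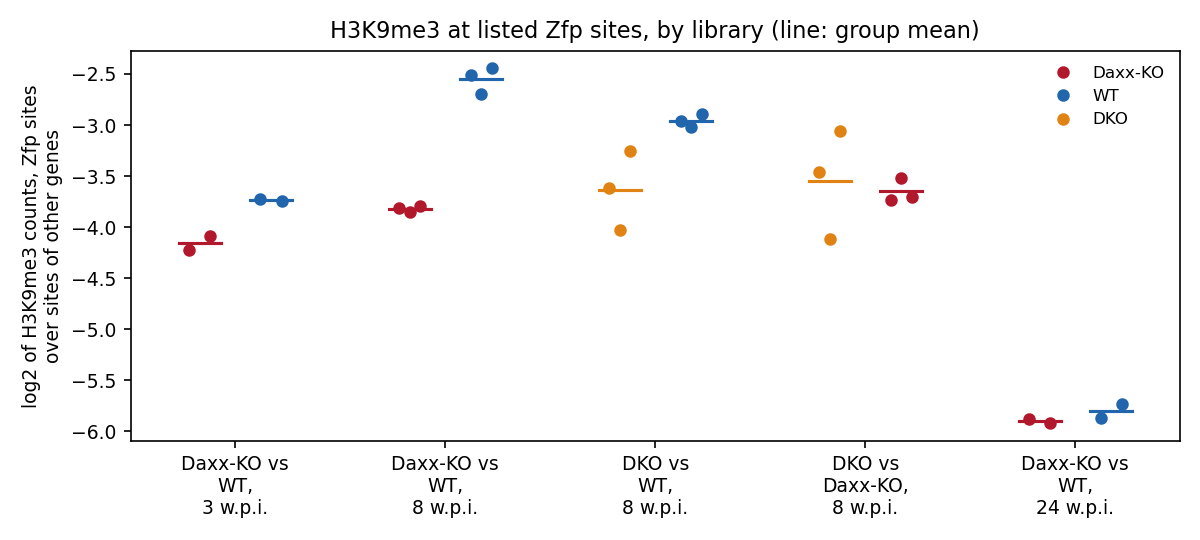
Log2 of the summed H3K9me3 counts at Zfp sites over those at sites of other genes in each library (points) with the group mean (line), for the 5 H3K9me3 comparisons. At 8 w.p.i. the 3 Daxx-KO libraries lie near -3.8 and the 3 WT libraries between -2.70 and -2.45, and the DKO libraries spread from -4.03 to -3.25 against WT.

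Within Zfp genes, the share of gained H3K9me3 sites was highest at the 5′ end. In the first 10% of the gene body 90.0% of sites were gained at 3 w.p.i. (18 of 20), 64.5% at 8 w.p.i. (20 of 31) and 59.3% at 24 w.p.i. (54 of 91). In the last 10% it was 54.4% at 3 w.p.i., 19.1% at 8 w.p.i. and 32.5% at 24 w.p.i. At 3 w.p.i. the fifth and sixth steps of 10% had 61.5% and 50.8%, and the lowest share was 45.9% in the eighth. At 8 w.p.i. the sixth step, with 20.3%, was about as low as the last. At 24 w.p.i. the last step was the lowest.

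**Figure D3:**
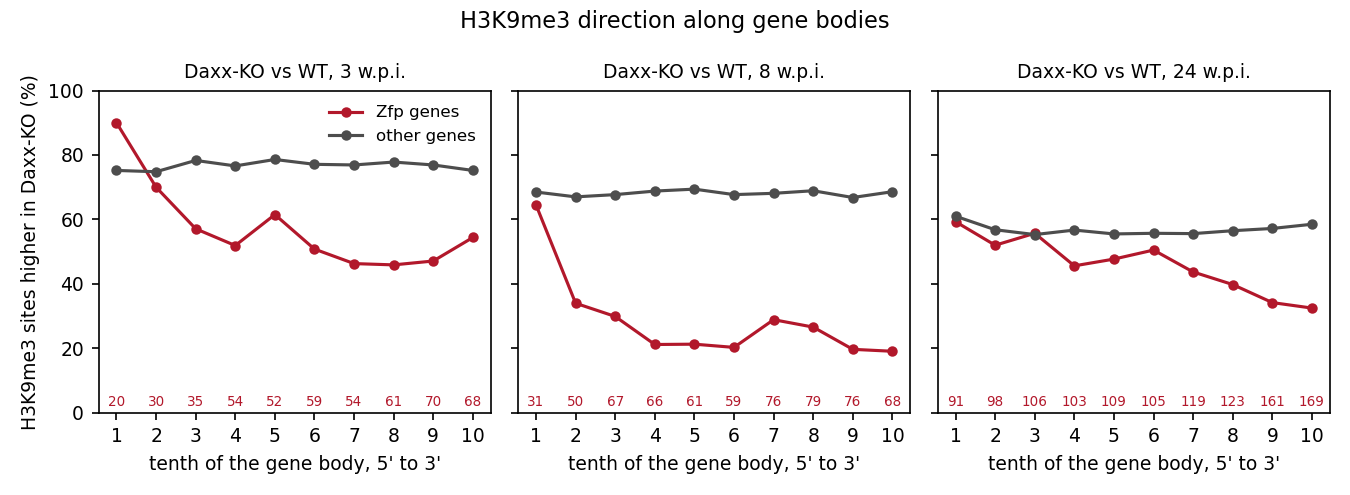
Share of H3K9me3 sites higher in Daxx-KO cells in steps of 10% of the gene body from the 5′ to the 3′ end, for Zfp genes (red, number of sites printed at the foot) and other genes (grey), at 3, 8 and 24 w.p.i. The red line starts near or above the grey one in the first step and ends below it, at 19.1% in the last step at 8 w.p.i.

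Promoters of Zfp genes, taken as 1 kb to either side of the start, had few H3K9me3 sites and gained more of them. At 8 w.p.i., 8 of 12 promoter sites of Zfp genes were gained (66.7%) against 15 of 109 sites in the last 3 kb of the gene (13.8%), a difference of -52.9 percentage points (95% interval -73.1 to -24.2). At 24 w.p.i., 38 of 64 promoter sites were gained (59.4%) against 58 of 229 sites at 3′ ends (25.3%), a difference of -34.1 (-46.4 to -20.4). At 3 w.p.i., 7 of 11 promoter sites were gained against 43 of 107 at 3′ ends (40.2%), and the interval of the difference of -23.5 reached from -46.4 to 6.35. The 3′ ends of other genes gained 71.6% at 3 w.p.i., 61.3% at 8 w.p.i. and 63.0% at 24 w.p.i., close to their own promoters.

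The last coding exon had the lowest shares. Sites there were gained in 30 of 90 cases at 3 w.p.i. (33.3%), 7 of 83 at 8 w.p.i. (8.43%) and 41 of 183 at 24 w.p.i. (22.4%). With GC content and mean count made equal, these shares were 28.0, 45.2 and 17.5 percentage points below those of other genic sites at 3, 8 and 24 w.p.i. Under the same setting, the rest of the Zfp gene body differed from other genic sites by -16.6 points at 3 w.p.i., by -29.7 at 8 w.p.i. and by 1.19 at 24 w.p.i., so at the earlier times sites outside the last coding exon had lower shares too. Mean normalized counts per site of the last coding exon were 53.4 and 68.1 in Daxx-KO cells against 89.2 and 97.3 in WT cells at 3 w.p.i. At 8 w.p.i. they were 42.1, 39.2 and 42.5 in Daxx-KO cells against 77.2, 93.4 and 86.1 in WT cells. At 24 w.p.i. they were 135.4 and 146.0 in Daxx-KO cells against 211.1 and 217.6 in WT cells. In all 3 tables each Daxx-KO library was below each WT library at these exons, also at 24 w.p.i., when the sum over all Zfp sites differed little.

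Loss went with the number of linker words in the exon. An H3K9me3 loss was listed at 8 w.p.i. in 54.9% of the 173 Zfp genes with 5 or more words, in 28.9% of the 97 genes with 1 to 4 and in 15.0% of the 113 genes with none. At 3 w.p.i. these shares were 45.1%, 22.7% and 13.3%. At 24 w.p.i. they were 69.4%, 46.4% and 48.7%, so genes with 1 to 4 words did not exceed genes with none. A gain was listed in 28.9%, 13.4% and 11.5% of the 3 classes at 8 w.p.i., so genes with many words had more H3K9me3 sites of either direction. At 3′ ends, a word lay under 46.8% of lost sites at 24 w.p.i. (80 of 171) and under 19.0% of gained sites (11 of 58). At 3 w.p.i. it lay under 56.2% of lost (36 of 64) and 53.5% of gained sites (23 of 43), so the shares were close.

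In 19 Zfp genes a lost H3K9me3 site lay over the last coding exon at 3, at 8 and at 24 w.p.i., and no gene had a gained site there at all 3 times. In 1 of the 19 a gained site lay over the same exon as well. Values of the 19 genes are for 1 site per exon and comparison, the one with the largest log2 ratio in size. For H3K9me3 in Daxx-KO against WT it was taken among lost sites only. These genes were picked out after their values were seen, and the same count was not made for other genes. They were Zfp334, Zfp189, Zfp518b, Zfp667, Zfp329, Zfp111, Zfp84, Zfp30, Zfp790, Zfp420, Zfp619, Zfp788, Zfp869, Zfp866, Zfp617, Zfp426, Zfp169, Zfp952 and Zfp955b. Of these, Zfp952 and Zfp955b lie near Daxx, where substrain differences cannot be told apart from the deletion. In all 57 cases the libraries of the genotypes did not overlap, which was so for 99.7%, 90.5% and 97.2% of listed H3K9me3 sites in other genes at 3, 8 and 24 w.p.i. and for 98.8%, 85.0% and 97.8% of those in Zfp genes. The log2 ratio of the averages, with 1 added to each, had a median of -2.24 at 3 w.p.i., -1.64 at 8 w.p.i. and -1.22 at 24 w.p.i. over the 19 genes. The ratio was between -3.97 and -0.76 at 3 w.p.i. At 8 w.p.i. the 19 genes lay between -2.81 and -0.84. The narrowest span was that of 24 w.p.i., between -2.42 and -0.52.

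Zfp790, whose finger repeats are printed first, lost most of its H3K9me3 over the exon. At 3 w.p.i. the site chr7:29827451-29831000 had 27.9 and 20.0 normalized counts in Daxx-KO cells against 234.5 and 284.1 in WT cells. At 8 w.p.i. the site chr7:29827851-29830900 had 18.1, 12.9 and 41.4 in Daxx-KO cells against 169.9, 102.9 and 252.3 in WT cells. At 24 w.p.i. the site chr7:29828051-29830700 had 191.3 and 231.4 in Daxx-KO cells against 766.4 and 594.1 in WT cells. Every Daxx-KO library was below every WT library at each time, with log2 ratios of -3.38, -2.81 and -1.68. Exact two-sided permutation over the libraries of such a site cannot give a p below 0.33 for 2 against 2 or below 0.1 for 3 against 3.

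Zfp169, the third gene printed, had 11.6 and 21.7 normalized counts in Daxx-KO cells against 203.0 and 272.5 in WT cells at 3 w.p.i. At 8 w.p.i. it had 41.6, 2.76 and 1.34 in Daxx-KO cells against 89.3, 47.2 and 77.4 in WT cells. At 24 w.p.i. it had 167.0 and 202.2 in Daxx-KO cells against 385.5 and 432.9 in WT cells. The log2 ratios were -3.76, -2.16 and -1.14, and Daxx-KO replicate 1 at 8 w.p.i. came close to the lowest WT library. Zfp869, the gene printed between them, had 16.3 and 28.3 against 88.4 and 130.4 at 3 w.p.i. At 8 w.p.i. it had 19.0, 7.36 and 24.1 against 41.1, 78.5 and 83.7. At 24 w.p.i. it had 66.3 and 103.2 against 233.2 and 220.2. Its log2 ratios were -2.24, -1.95 and -1.41, without overlap at any time.

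Zfp30 and Zfp84, which lie next to Zfp790 on chromosome 7, were lost in the same way. Zfp30 had 9.30 and 0 normalized counts in Daxx-KO against 60.4 and 110.2 in WT cells at 3 w.p.i. Zfp84 had 10.5 and 6.67 against 150.5 and 147.3 at 3 w.p.i. These gave log2 ratios of -3.93 and -3.97, and the latter was the largest loss of the 19 genes. The smallest losses at 3 w.p.i. were those of Zfp955b, with 76.7 and 65.0 in Daxx-KO cells against 112.0 and 129.3 in WT cells and a log2 ratio of -0.76, and of Zfp329 with a log2 ratio of -0.77. Both were still without overlap. Zfp518b, a gene of the list with no linker word in its last coding exon, had 4.65 and 15.0 in Daxx-KO against 83.1 and 125.8 in WT cells at 3 w.p.i., so loss over this exon was not limited to exons with the word.

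**Figure D4:**
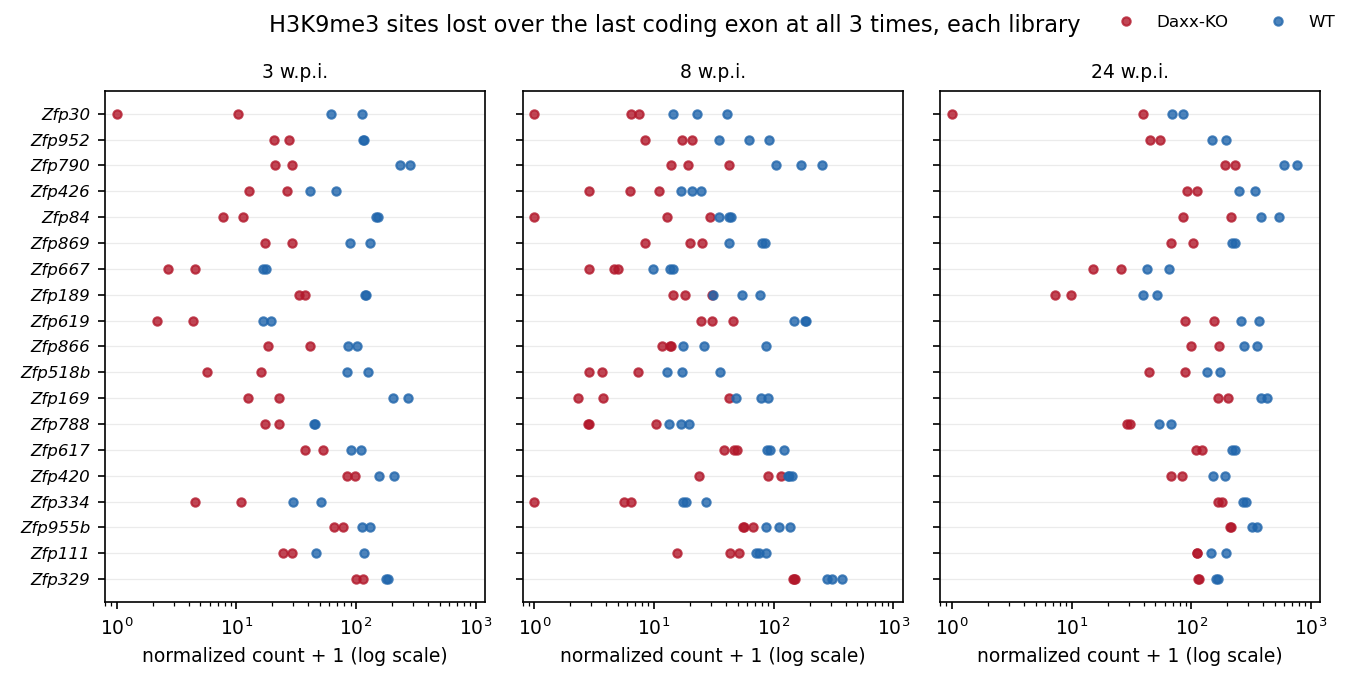
Normalized H3K9me3 counts (plus 1, log scale) of each Daxx-KO (red) and WT (blue) library in 19 Zfp genes, at 3, 8 and 24 w.p.i. Points show the lost site over the last coding exon with the largest change. In each row and panel the red points lie to the left of the blue points, with the widest gap in Zfp84 at 3 w.p.i. and narrow ones in Zfp329.

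H3K9me3 losses recurred across the 3 times, which share no mice. A loss was listed at all 3 times in 77 Zfp genes (20.1% of 383), against 828 other genes (4.05% of 20424). A gain was listed at all 3 times in 47 Zfp genes (12.3%) and in 1228 other genes (6.01%). Lost sites and no gained site at any of these times were found in 26 Zfp genes and 68 other genes. Among 182 overlapping pairs of Zfp sites at 3 and 8 w.p.i., 120 were lost at both times, 37 were gained and then lost, 19 were gained at both and 6 were lost and then gained. Of pairs gained at 3 w.p.i., 33.9% were gained at 8 w.p.i. in Zfp genes and 81.5% in other genes. Of pairs lost at 3 w.p.i., 95.2% were lost at 8 w.p.i. in Zfp genes and 82.7% in other genes. Of all listed sites at 8 w.p.i., 470 of 638 were lost in Zfp genes but only 4861 of 15447 in other genes. Loss was thus the more common direction in Zfp genes from the outset, and the higher share of pairs is no sign of stronger recurrence. Sites without an overlapping listed site at the other time are left out of the shares of pairs, here and below. Among overlapping pairs of Zfp sites at 3 and 24 w.p.i., 80% of those lost at 3 w.p.i. were lost again. Of the pairs gained at 3 w.p.i., 38.7% were gained again. In other genes these shares were 78.0% and 52.5%, so the share of losses found again was close to that in Zfp genes. Of all listed sites at 24 w.p.i., 676 of 1214 were lost in Zfp genes and 25039 of 57928 in other genes.

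The pattern at finger exons was not shared by all parts of all Zfp genes, since long introns also held gained H3K9me3 sites. Among the genes with the largest recurrent gains, by the smallest of their 3 ratios, were Zfp423, Zfp697, Zfp536, Zfp618, Zfp385b, Zfp943 and Zfp804b. Zfp423, a multi-finger regulator of adipose and neural development, had the most sites of any Zfp gene, 508 over all tables. At chr8:87944951-87945750, in an intron, it had 13.95 and 26.7 normalized H3K9me3 counts in Daxx-KO against 3.50 and 1.16 in WT cells at 3 w.p.i., a log2 ratio of 2.68. At chr8:87782401-87783150, over a coding exon, it had 9.94, 11.04 and 17.4 in Daxx-KO cells and 0 in each WT library at 8 w.p.i. Zfp952, which lies near Daxx on chromosome 17, lost H3K9me3 in its gene body at all times. Its site at chr17:32999301-33002200 had 0 and 5.00 against 68.3 and 67.3 at 3 w.p.i., a log2 ratio of -4.30. Substrain differences near Daxx cannot be told apart from the deletion at this gene.

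Known regulators within the family differed from each other. Zfp445, which protects imprinted methylation, lost H3K9me3 at 3, 8 and 24 w.p.i., in the same intron at 3 and 24 w.p.i. and nearer the 3′ end at 8 w.p.i. These sites had 15.1 and 18.3 normalized counts against 48.1 and 42.9 at 3 w.p.i., 3.62, 3.68 and 0 against 23.7, 13.5 and 12.5 at 8 w.p.i. and 28.7 and 22.9 against 59.1 and 59.0 at 24 w.p.i. The libraries did not overlap at any time, with log2 ratios of -1.39, -2.35 and -1.16. Zfp809, a KRAB protein that silences murine leukaemia proviruses, had 11.6 and 16.7 against 39.4 and 44.6 at 3 w.p.i., a log2 ratio of -1.51. At 8 w.p.i. it had 4.52, 1.84 and 8.02 against 29.2, 12.7 and 37.5. At 24 w.p.i. its site with the largest change was gained instead, with 46.5 and 109.4 against 20.2 and 17.8 near the 3′ end. Zfp57, the other guardian of imprints, and Zfp36, an RNA-binding protein with another kind of zinc finger, had no H3K9me3 site. H3K27ac at the end of Zfp36, a gene induced in inflammation, was 2772.0 and 2620.0 in Daxx-KO cells against 2310.0 and 1471.0 in WT cells at 24 w.p.i., a log2 ratio of 0.51. Zfp697, Zfp943 and Zfp804b had lost H3K9me3 sites at all 3 times as well.

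Clustered and isolated Zfp genes had similar shares of gained H3K9me3 sites at the earlier times. At 3 w.p.i. 58.0% of sites in clustered and 49.6% in isolated genes were gained, and at 8 w.p.i. 28.5% and 23.6%. The intervals of both differences included 0. At 24 w.p.i. clustered genes gained less, 38.5% against 49.2% (difference of -10.7 percentage points, 95% interval -16.1 to -5.05). The cluster with the most H3K9me3 sites was that of 18 genes, Zfp990 to Zfp933, at chr4:145510759-147848366. It had 68 gained and 29 lost sites at 3 w.p.i., 53 and 91 at 8 w.p.i. and 21 and 139 at 24 w.p.i. Without it, the difference between Zfp and other genes at 24 w.p.i. was -7.75 percentage points, in place of -12.5. Neighbouring genes in such clusters are near-identical in part, and how the authors assigned reads that map to several copies is not given in the sources used here, so the counts of single genes there are uncertain.

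Single clusters did not follow the family as a whole. Zfp712 to Zfp273, 23 genes at chr13:67038596-67827002, had 38 gained and no lost H3K9me3 sites at 3 w.p.i., 22 and 21 at 8 w.p.i. and 44 and 15 at 24 w.p.i. In it, Zfp712 had 32.6 and 46.7 normalized counts against 0 and 9.28 in an intron at 3 w.p.i., a log2 ratio of 2.85. Zfp84 to Zfp146, 15 genes of chromosome 7 that include Zfp30 and Zfp790, had no gained and 16 lost sites at 3 w.p.i., 2 and 10 at 8 w.p.i. and 8 and 19 at 24 w.p.i. Relative to sites of other genes, the summed log2 signal of this cluster was at -9.40 and -9.87 in Daxx-KO libraries against -7.62 and -7.56 in WT libraries at 3 w.p.i., a difference of -2.04. It differed by -2.11 at 8 w.p.i. and by -0.72 at 24 w.p.i., without overlap of the libraries at any of the 3 times.

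**Figure D5:**
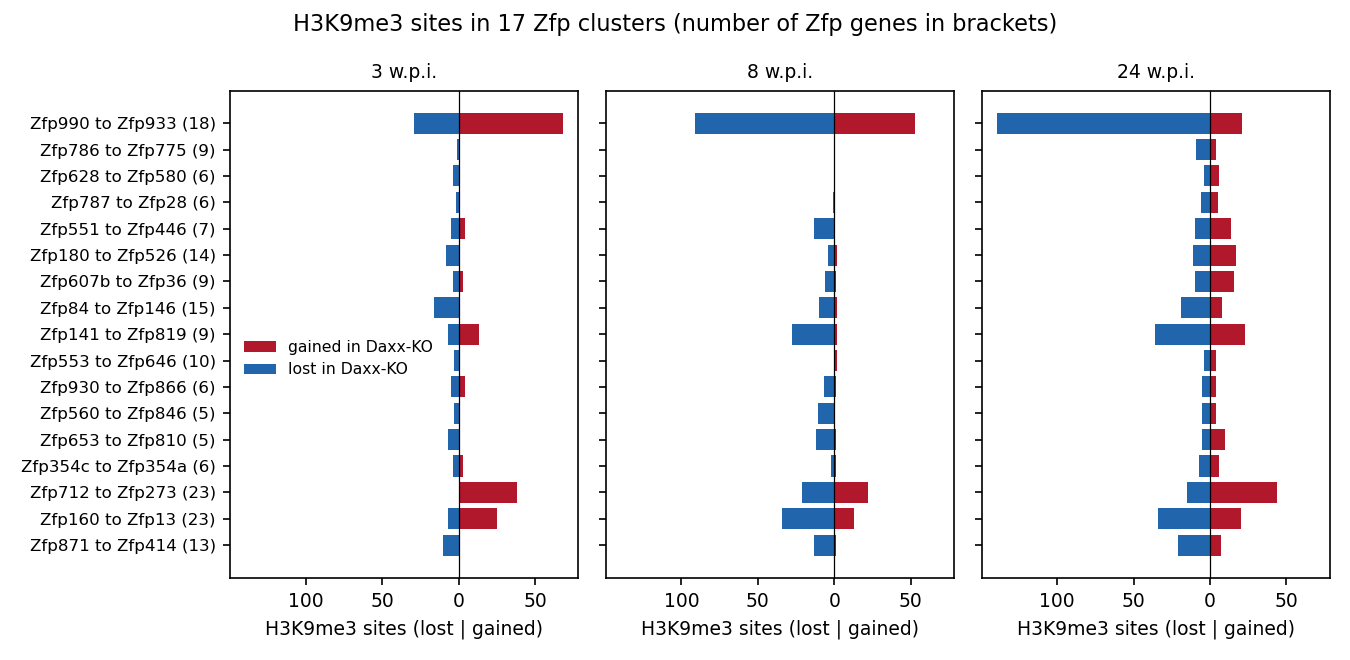
Number of H3K9me3 sites lost (blue, left) and gained (red, right) in Daxx-KO cells in each of 17 clusters of Zfp genes at 3, 8 and 24 w.p.i., with the number of genes in brackets. Zfp990 to Zfp933 turns from 68 gained and 29 lost to 21 gained and 139 lost. Zfp712 to Zfp273 has more gained than lost sites at 3 and 24 w.p.i. but 22 gained and 21 lost at 8 w.p.i.

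In DKO cells, which lack Pu.1 as well as Daxx, H3K9me3 sites in Zfp genes were gained less often than those in other genes when set against WT. The 3 comparisons at 8 w.p.i. share libraries, so their values are given side by side. Against WT, 358 of 586 H3K9me3 sites in Zfp genes were gained (61.1%), compared with 81.4% in other genes, a difference of -20.3 percentage points (95% interval -24.3 to -16.3). With GC content and mean count made equal it was -17.7, and with mean count alone -3.98. Against Daxx-KO, 426 of 513 sites in Zfp genes were gained (83.0%), compared with 74.7% in other genes. This difference of 8.36 points (4.75 to 11.5) was -0.30 with GC content and mean count made equal, so it was not particular to Zfp genes under that setting. The libraries of the 2 genotypes did not overlap at 59.2% and 52.4% of Zfp sites in these 2 comparisons, against 68.5% and 70.1% of sites in other genes.

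By library, the log2 ratio of Zfp to other sites was -3.62, -3.25 and -4.03 in DKO against -2.96, -2.89 and -3.02 in WT cells. All DKO libraries lay below WT, 0.625-fold (SD 0.389 and 0.0652, n = 3, exact two-sided permutation p = 0.1, the smallest possible, adjusted p = 0.35). Against Daxx-KO, the DKO libraries were at -3.46, -3.06 and -4.12 and the Daxx-KO libraries at -3.70, -3.73 and -3.52. These overlapped, with a difference of 0.10 that turned to -0.14 without DKO replicate 2, the library of 0.21 reads per window (SD 0.536 and 0.118, n = 3, exact two-sided permutation p = 0.7).

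Over last coding exons, DKO cells gained 43 of 80 sites against WT (53.8%) and 61 of 70 against Daxx-KO (87.1%). Mean normalized counts per site there were 52.7, 76.5 and 30.4 in DKO against 53.5, 55.9 and 55.3 in WT cells, so the groups overlapped and DKO replicate 2, the shallowest library, was above every WT library. Of the 19 genes above, 14 had a listed site over the exon against WT. The site with the largest change was lost and without overlap in all 14, with a median log2 ratio of -2.45. The 19 genes had been picked with the same WT libraries of 8 w.p.i., so these values describe them and are no independent sign of a loss in DKO cells. Zfp790 had 0, 0 and 22.2 normalized counts in DKO against 94.4, 56.2 and 133.2 in WT cells at chr7:29828201-29830800. The smallest of these losses was in Zfp329, with a log2 ratio of -0.94. Against Daxx-KO only 3 of the 19 genes had a listed site there, with Zfp111 lost (-2.22) and Zfp329 and Zfp955b gained (1.02 and 0.79). At Zfp955b the libraries overlapped, with 20.4, 170.0 and 35.0 in DKO against 39.7, 39.9 and 49.2 in Daxx-KO cells. A site elsewhere in Zfp445 was lower in DKO than in WT cells as well, with 0, 3.45 and 2.30 against 22.9, 16.8 and 18.6. DKO replicates 1 and 2 had only 0.67 and 0.21 reads per window. Low DKO counts, as at Zfp445 and Zfp790, thus rest on few reads, and the sizes of these losses are uncertain.

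H3.3 sites in Zfp genes were gained about as often as H3.3 sites in other genes. At 3 w.p.i., 601 of 940 Zfp sites were gained (63.9%), against 62.6% in other genes, and at 24 w.p.i. 845 of 1632 (51.8%) against 52.4%. The summed signal by library differed by less than its spread, with log2 differences of 0.01 at 3 w.p.i. and -0.002 at 24 w.p.i. (exact two-sided permutation p = 1.0 for both, n = 2). The WT H3.3 libraries at 3 w.p.i. differed in depth, with 22.88 and 3.06 reads per window, against 9.43 and 11.27 in Daxx-KO cells. At 3′ ends of Zfp genes 83.3% of H3.3 sites were gained at 3 w.p.i. (95 of 114), compared with 74.8% at 3′ ends of other genes, a difference of 8.55 points (95% interval 0.59 to 14.4). Over last coding exons it was 90.4% (75 of 83). Median GC content was 56.6% at these exon sites, 52.4% at 3′ ends of other genes and 59.4% at promoters of other genes, which gained 81.3%. H3.3 shares were not compared at equal GC content or mean count, so the part of these was not tested. Promoters of Zfp genes gained 92 of 115 sites, and the interval of the difference between 3′ ends and promoters included 0 (3.33 points, -6.77 to 13.4). At 24 w.p.i. the shares were 53.6% at 3′ ends and 59.8% at promoters.

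Overlapping pairs of an H3K9me3 and an H3.3 site in Zfp genes numbered 76 at 3 w.p.i. Among these, 45 paired an H3K9me3 loss with an H3.3 gain and 12 paired losses of both. In other genes 818 pairs joined an H3K9me3 loss to an H3.3 gain and 163 joined losses of both, so gained H3.3 at lost H3K9me3 was found in other genes too. Of the 19 genes, 4 had an H3.3 site over the exon at 3 w.p.i., and the site with the largest change was gained in 3 of them. At Zfp30, H3.3 was 91.6 and 148.9 in Daxx-KO against 27.3 and 15.7 in WT cells at 3 w.p.i., a log2 ratio of 2.43. At 24 w.p.i., 8 of the 19 genes had an H3.3 site there, and the site with the largest change was lost in 7 of them. Over all last coding exons of Zfp genes, 58 of 108 H3.3 sites were gained (53.7%). At Zfp30 it was then 21.0 and 1.13 against 123.6 and 45.1, a log2 ratio of -2.82, so the direction at this exon was opposite at the 2 times. At Zfp334, H3.3 was 31.6 and 35.4 against 12.6 and 10.5 at 3 w.p.i. and 3.31 and 26.0 against 223.2 and 223.8 at 24 w.p.i. The exception at 24 w.p.i. was Zfp426, with 68.5 and 86.0 against 0 and 1.88. The difference between the times was not tested.

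Pu.1 sites in Zfp genes were gained slightly more often than those in other genes at 3 w.p.i., with 653 of 1035 (63.1%) against 59.0%, a difference of 4.11 percentage points (95% interval 1.11 to 7.02). At 24 w.p.i. it was 762 of 1605 (47.5%) against 47.1%. At 3 w.p.i. the gain was 82.5% at 3′ ends (99 of 120) and 76.6% at promoters (82 of 107) of Zfp genes, whereas 3′ ends of other genes had 72.7% and promoters 83.4%. At 24 w.p.i. promoters of Zfp genes gained 32.5% of Pu.1 sites (38 of 117) and 3′ ends 53.6% (98 of 183), a difference of 21.1 points (9.59 to 31.6). Promoters of other genes gained 41.5% and their 3′ ends 46.6%. The summed signal by library differed by 0.06 at 3 w.p.i. and 0.01 at 24 w.p.i. on the log2 scale (exact two-sided permutation p = 0.33 for both, n = 2). Pu.1 over whole Zfp gene bodies was thus gained and lost in nearly the proportions of other genes.

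H3K27ac sites in Zfp genes followed other genes too. At 3 w.p.i. 255 of 711 were gained (35.9%) against 38.0%, and at 24 w.p.i. 648 of 1465 (44.2%) against 41.7%. Promoters of Zfp genes gained 17 of 98 H3K27ac sites at 3 w.p.i. (17.3%) and 141 of 262 at 24 w.p.i. (53.8%). Promoters of other genes moved in the same way, from 19.7% to 61.7%. By library, H3K27ac at Zfp sites relative to other sites was lower in Daxx-KO cells at 3 w.p.i. (-0.18, 0.882-fold, SD 0.00148 and 0.0242) and higher at 24 w.p.i. (0.11, 1.08-fold, SD 0.00934 and 0.0156). The groups did not overlap at either time (n = 2, exact two-sided permutation p = 0.33, the smallest possible). The KRAB gene Zfp809 had 798.0 and 769.9 normalized H3K27ac counts in Daxx-KO against 607.7 and 406.6 in WT cells at its promoter at 24 w.p.i.

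H3K27me3 was listed at fewer Zfp genes than other genes at 8 w.p.i., 13.3% against 29.9% between DKO and WT. There, 140 of 245 sites in Zfp genes were gained (57.1%) against 54.6% in other genes, and between DKO and Daxx-KO 147 of 226 (65.0%) against 62.0%. At promoters of Zfp genes 18 of 25 sites were gained in DKO against WT (72.0%), and 4 of 24 against Daxx-KO (16.7%). Promoters of other genes had 63.1% and 42.3% in these comparisons, so the second was lower than the first there too. At 24 w.p.i. Daxx-KO cells gained 294 of 792 sites (37.1%) against 41.0% in other genes, a difference of -3.85 points (95% interval -7.17 to -0.41). The lowest share was again at promoters, with 32 of 161 (19.9%), close to the 21.2% of other genes' promoters. Zfp148, which binds GC-rich promoters, had 1.60 and 39.6 against 110.2 and 94.2 H3K27me3 counts at its promoter at 24 w.p.i., and Zfp36 had 49.5 and 35.0 against 242.7 and 108.5. Zfp318, expressed in lymphocytes, went the other way at a site in its gene body, with 369.3 and 336.7 against 169.9 and 114.2. Losses of H3K27me3 at promoters were thus found in Zfp genes and other genes alike.

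A list of 17 genes was examined as well. It holds genes that act with KRAB proteins, such as Trim28, Setdb1, Atf7ip, the HP1 genes Cbx1, Cbx3 and Cbx5, Dnmt1 and Uhrf1. It also holds Daxx, the deleted gene, and the H3.3 genes H3f3a and H3f3b. In Daxx-KO against WT, 2 of the 17 genes had an H3K9me3 site at 3 w.p.i., 1 at 8 w.p.i. and 12 at 24 w.p.i. Of all other genes outside the Zfp family, 18.6%, 15.2% and 62.2% had one at these times. At 24 w.p.i. 9 had a gain and 7 a loss, some both. An H3K27me3 site was listed in 14 of the 17 at 24 w.p.i., against 69.1% of genes outside the Zfp family. It was a loss in 13 of them, Daxx included, and a gain in 2. The share of other genes with a loss is not given here. By site, which is another measure, 41.0% of all sites in other genes and 21.2% of those at their promoters were gains.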

How the data were processed

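The analysis used 54 of 62 libraries. Another 8 libraries of DKO mice at 24 w.p.i. were not analysed here. According to the labels and file headers, the authors used CASAVA 1.8.4, cutadapt, STAR 2.5.3 and bedtools, and called sites on mm10 with diffReps 1.55.6 in windows of 600 bp moved by 50 bp, keeping windows below a p of 0.0001 in a negative binomial test. The tables of 24 w.p.i. leave out X and Y. The deposited counts used here are, per library, reads in the site divided by a normalization constant, so their unit is neither raw counts nor CPM. The authors' own columns of fold changes, p-values and directions were not used. One table, H3K27me3 of Daxx-KO against WT at 8 w.p.i., was left out because its control libraries were those of H3K9me3. An H3.3 and Pu.1 library of WT mice at 3 w.p.i. bears no mouse number in the headers and was assigned as the remaining WT library.

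Direction came from group averages, and log2 ratios added 1 to each. Shares carry 95% Wilson and their differences 95% Newcombe intervals, which cover counting error only. Summed signal at Zfp sites over other genic sites was compared over libraries by exact two-sided permutation, adjusted by Benjamini-Hochberg over 14 comparisons. P-values measure the spread between mice at sites listed for a difference between these same libraries, so they are not independent of that selection. Sites were compared at equal GC content in bins of 2 percentage points and at equal mean count in bins of 0.5 log2. The genes named in the text were the 2 largest changes per table and direction without overlap and with an average of at least 20, up to 8 genes per direction that recurred in H3K9me3, 12 genes of known role, the gene with the most sites and the 3 largest clusters; the 19 genes of last coding exons were added after their values were seen. The Zfp genes and all lists were chosen with earlier results of these data known. Computations ran in Python (version 3.11.15) and used SciPy 1.17.1, NumPy 2.4.6 and the pandas library, version 2.3.3; they were tested on simulated data. Alternatives were tried as given at the end, and those of mean count, scaling by reads per window and the left-out cluster were chosen after seeing the data.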

Additional observations from a re-analysis of the deposited data

Results flagged for a closer look

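Some clusters of Zfp genes moved in opposite directions at different times, with every Daxx-KO library on one side of every WT library at each time given. The values are log2 differences of Daxx-KO from WT in summed H3K9me3 counts relative to sites of other genes, and the difference between the times was not tested. Zfp712 to Zfp273 on chromosome 13 was at 1.37 at 3 w.p.i., -0.727 at 8 w.p.i. and 0.70 at 24 w.p.i. Zfp160 to Zfp13 on chromosome 17 was at 0.479 at 3 w.p.i. and -1.35 at 8 w.p.i. Zfp141 to Zfp819 on chromosome 7 was at 0.336 at 3 w.p.i. and -1.49 at 8 w.p.i. Zfp653 to Zfp810 on chromosome 9 was at -1.85 at 8 w.p.i. and 0.54 at 24 w.p.i. H3K27ac at Zfp sites relative to other genic sites was at -0.181 at 3 w.p.i. and 0.109 at 24 w.p.i., with the same lack of overlap. Different times are different mice and, in part, sites of different extent.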

How the results depend on the processing

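Differences in gained share between Zfp and other genic sites (percentage points) stayed within their own 95% interval in 234 alternatives, moved beyond it in 27 and reversed in 1. For H3K9me3 at 3 w.p.i. the value was -15.9 with averages of at least 20, -6.12 at equal mean count and -19.2 at equal GC content and mean count. At 8 w.p.i. it was -48.3 with averages of at least 20, -36.8 with sites within 1 kb joined, -36.1 with each gene counted once, -35.6 at equal mean count and -31.2 at equal GC content and mean count. At 24 w.p.i. it was -8.75 with log2 ratios of at least 1, -9.08 with sites joined, -21.1 with each gene counted once, -4.21 at equal GC content, -1.86 at equal GC content and mean count and -7.75 without the cluster Zfp990 to Zfp933. For DKO against WT it was -34.5 among sites without overlap, -16.1 with each gene counted once, -25.5 at equal GC content, -3.98 at equal mean count and from -24.4 without DKO replicate 2 to -18.5 without DKO replicate 1. For DKO against Daxx-KO it was 4.39 among sites without overlap, 0.191 at equal GC content, 17.7 at equal mean count and reversed to -0.295 at equal GC content and mean count. With each gene counted once it was 5.85 for H3.3 at 3 w.p.i., -2.61 for H3K27ac at 24 w.p.i., and for H3K27me3 10.5 in DKO against WT and -5.21 in DKO against Daxx-KO. The H3K27ac value and the last of these changed sign, as did small values of Pu.1 at 24 w.p.i., whose intervals all included 0. H3K27ac at 3 w.p.i. was at -5.74 with averages of at least 20. The cause of these shifts was not tested.

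Summed signal by library reversed where it was close to 0. H3.3 at 3 w.p.i. ranged from -0.0295 without WT replicate 1 to 0.0475 without WT replicate 2, and H3.3 at 24 w.p.i. from -0.00556 to 0.00165, with 0.00866 when 5 Mb around Daxx and Spi1 were left out. DKO against Daxx-KO in H3K9me3 ranged from -0.14 without DKO replicate 2 to 0.391 without DKO replicate 3. Without the cluster Zfp990 to Zfp933, Pu.1 at 24 w.p.i. was at -0.0125 and H3K9me3 at 24 w.p.i. at 0.0725. Under the replicate block H3K9me3 at 8 w.p.i. kept its difference of -1.27 (exact sign-flip p = 0.25, the smallest possible for 3 pairs), and the block changed no other call. Replicate numbers do not mark shared mice. Differences between 3′ ends and promoters stayed within their intervals in all 47 alternatives. The shallow DKO libraries and groups of 2 or 3 limit the precision.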

Other observations

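Other large gene families that lie in clusters had higher shares of gained H3K9me3 sites than Zfp genes at 3 and 8 w.p.i., though Vmn genes lay below other genes in general at 8 w.p.i. (59.6% against 68.5%). Olfactory receptor genes (Olfr) gained 169 of 190 H3K9me3 sites at 3 w.p.i. (88.9%) and 137 of 197 at 8 w.p.i. (69.5%), but 120 of 349 at 24 w.p.i. (34.4%). Vomeronasal receptor genes (Vmn) gained 133 of 165, 133 of 223 and 83 of 307 sites at these times. At 24 w.p.i. both receptor families thus gained a lower share than Zfp genes (44.3%). Finger genes of the Zkscan and Zscan names had few sites, with 2 of 6 gained at 3 w.p.i., 1 of 8 at 8 w.p.i. and 11 of 25 at 24 w.p.i. The Zbtb genes, which join fingers to a BTB domain, gained 13 of 17, 4 of 7 and 72 of 117 sites. These families differ from Zfp genes in mean count and base composition, whose part in the differences was not tested.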
